A study of Mus musculus with 8 samples.

Results

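The genes encoding the histone acetyltransferase MOF and its partners in the NSL and MSL complexes were examined for peaks of MOF, Rfx2, H3K4me3 and H3K27ac in mouse epidermis. The set holds 10 of 26180 genes with a curated RefSeq transcript, chosen by name: Kat8, which encodes MOF, the NSL genes Kansl1, Kansl2, Kansl3, Phf20, Mcrs1, Wdr5 and Hcfc1, and the MSL genes Msl1 and Msl2. The promoter of a gene was the window from 1 kb upstream to 100 bp downstream of any of its transcription start sites (TSSs), and a peak counted there if at least 1 bp of it fell in that window. The rule that set the members used gene names and no peak value, though the members were chosen with earlier results of these data known.

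MOF transfers an acetyl group to lysine 16 of histone H4 (H4K16ac), a mark that loosens contacts between neighbouring nucleosomes. It works in a pair of assemblies. In the NSL complex it is held by the KANSL1 scaffold together with further subunits and acts mainly at promoters of broadly used genes, whereas in the MSL complex it is held by MSL1 and deposits much of the H4K16ac of the genome. H3K4me3 marks promoters in use, H3K27ac marks promoters and enhancers in use, and Rfx2 is a transcription factor that binds the X-box of ciliary genes.

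All 8 samples, covering 6 antibodies, were wild-type mouse total epidermis taken at postnatal day 0.5. The epidermis was peeled from dispase-treated back skin and dissociated without a sort, so the cells are a mixture. MOF was mapped by ChIPseq on fixed chromatin and Rfx2, H3K4me3 and H3K27ac by Cut&Run, in which an antibody brings a nuclease to its target. Peak lists of these 4 antibodies were analysed, 1 library each, so no value below has a replicate error, no test between samples was possible, and every count describes these libraries.

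The lists held 17546 MOF, 337 Rfx2, 27039 H3K4me3 and 30736 H3K27ac peaks, of which 5221, 255, 13315 and 10801 lay at a promoter. Fold enrichment, the height the peak caller gave, was available for Rfx2, H3K4me3 and H3K27ac, while MOF peaks carried a score of unstated scale. Heights were therefore compared only within a list, as a rank among its promoter peaks on which 100% is the highest. Promoters of 8 of 10 keratinocyte marker genes had H3K4me3 and 5 of 10 had H3K27ac, against 54.0% and 44.1% of all genes. Krt1 and Krt10 lacked both marks. Immune markers had H3K4me3 at 0 of 5, endothelial at 1 of 4, muscle and neuronal at 1 of 5, and melanocyte and fibroblast markers at 2 of 5 each. H3K27ac was at 1 of 5 melanocyte and 1 of 5 fibroblast markers and at no immune, endothelial, muscle or neuronal marker.

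MOF was found at the promoters of 7 of the 10 genes: its own gene Kat8, 5 of the 7 NSL genes (Kansl1, Kansl3, Phf20, Mcrs1 and Hcfc1) and 1 of the 2 MSL genes (Msl2). Among all 26180 genes, 23.7% had MOF at the promoter. All 10 genes had H3K4me3, against 54.0% of all genes, and all 10 had H3K27ac, against 44.1%. None of the 10 had an Rfx2 peak at the promoter or in the gene body, where 1.21% of all genes had Rfx2 at the promoter. Since every member carried both marks, the fitting background for MOF is narrower: MOF was present at 42.0% of the genes with H3K4me3 and at 48.8% of those with H3K4me3 and H3K27ac together. With 10 genes, 7 against a share of 48.8% is a description and not a test. Kansl2, Wdr5 and Msl1 had both marks and no MOF peak.

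**Figure D1:**
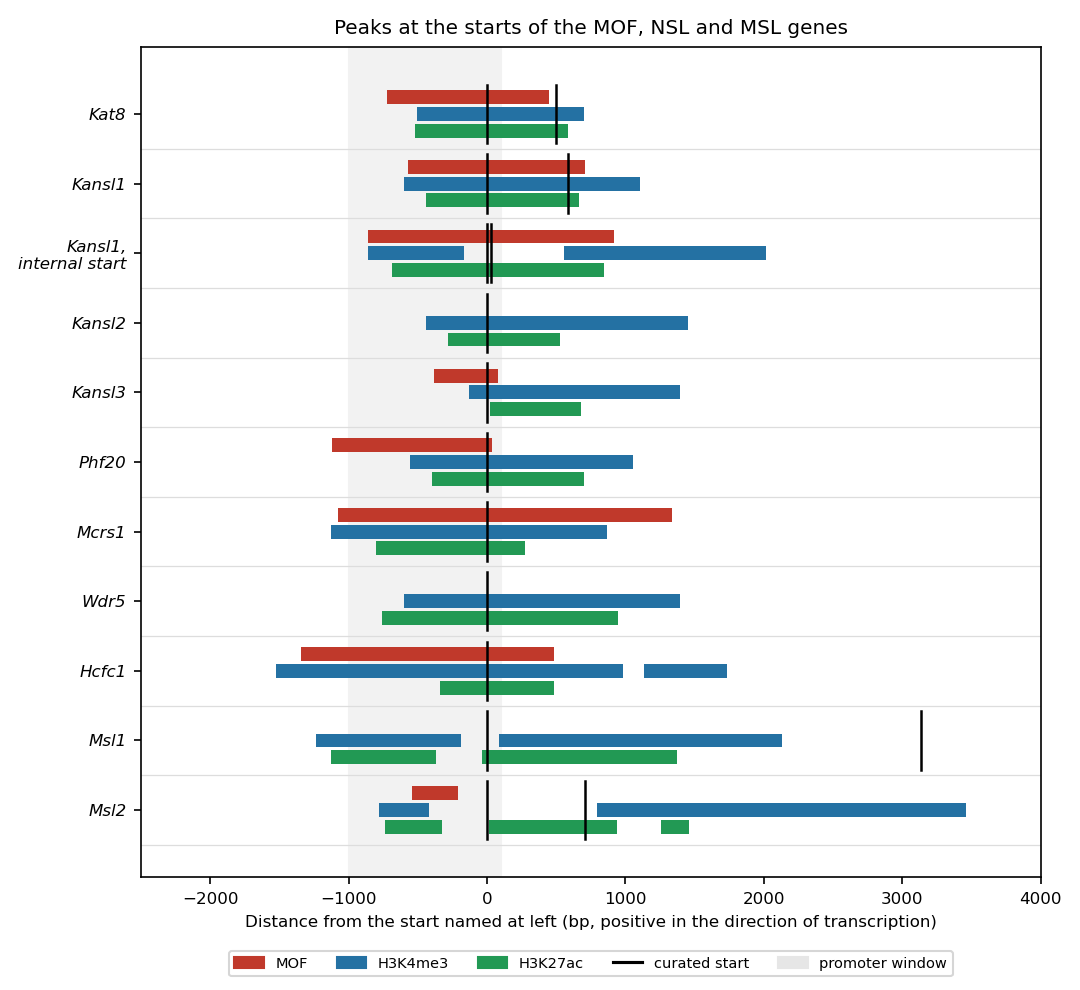
Peaks of MOF, H3K4me3 and H3K27ac as bars around the starts of the 10 genes, with the distance from the start in bp on the horizontal axis, the promoter window of the row's start shaded and curated starts as black lines. MOF lies at the promoters of 7 genes and is missing at Kansl2, Wdr5 and Msl1, and the H3K4me3 bars of Msl1 and Msl2 leave their starts uncovered.

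The heights were spread widely. The highest promoter peak of each member had a median rank of 51.9% for MOF (24.5% to 99.3% over 7 genes), 46.7% for H3K4me3 (5.67% to 85.1% over 10 genes) and 64.5% for H3K27ac (18.2% to 86.6%). For H3K4me3 and H3K27ac, Hcfc1, Msl1 and Msl2 held the 3 lowest ranks in each list. Kansl1, Kansl3 and Kat8 were above the 60% rank in all 3 lists. By width the H3K4me3 peaks stood elsewhere: the widest promoter peak of 9 of the 10 genes exceeded 1230 bp, the median of all H3K4me3 promoter peaks, and Kat8 with 1202 bp was the exception. Among all genes with H3K4me3, 57.2% had a widest promoter peak above that median. Ranked by the q-value of the caller in place of the fold enrichment, the median H3K4me3 rank of the set was 73.7%, so its place in the list depends on the measure.

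**Figure D2:**
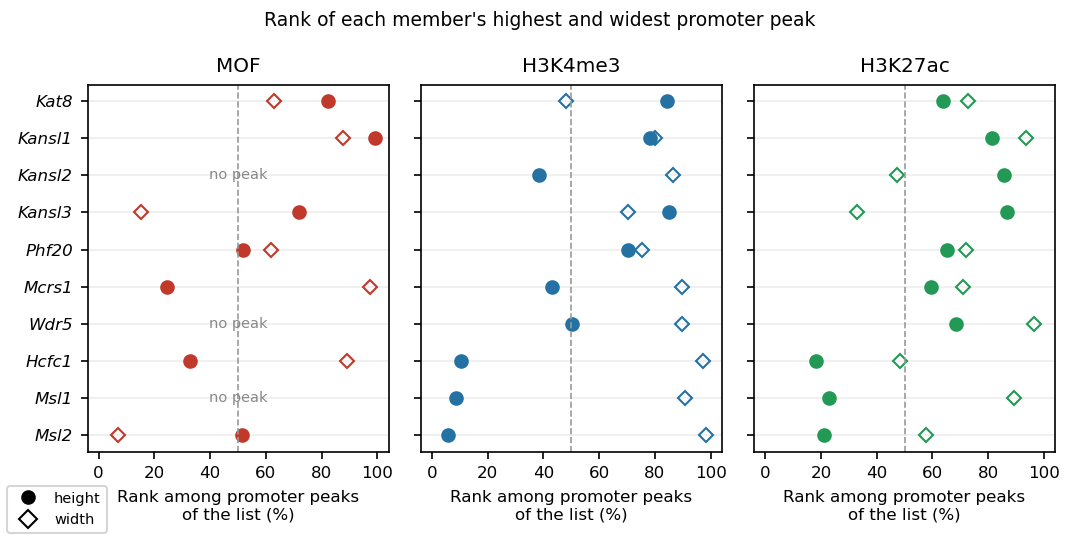
For each gene, the rank in percent of its highest promoter peak (filled circles) and of its widest promoter peak (open diamonds) among all promoter peaks of the list, with the dashed line at the middle rank. In the H3K4me3 panel Hcfc1, Msl1 and Msl2 sit at or below 10.6% by height and at or above 90.8% by width.

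Kat8 (gene ID 67773, chr7:127912517-127925838, plus strand) encodes the acetyltransferase itself, and MOF occupied its promoter. Its promoter letters, like those of the other genes below, are printed from 250 bases before the start to 10 bases from the start on, 5′ to 3′ on the coding strand, from RefSeq's GRCm38.p6 promoter table. Capitals mark letters of a searched motif, here an ETS motif that spans the start.
Kat8, chr7:127912267-127912526, plus strand: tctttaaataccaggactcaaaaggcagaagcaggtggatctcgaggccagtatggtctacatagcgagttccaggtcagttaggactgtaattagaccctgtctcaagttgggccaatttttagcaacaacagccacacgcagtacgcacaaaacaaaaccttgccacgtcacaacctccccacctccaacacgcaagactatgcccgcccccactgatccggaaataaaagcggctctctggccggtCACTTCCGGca
The MOF peak ran over 1176 bp, from 725 bp upstream to 450 bp downstream of the first start, with a score of 987 (rank 82.3%). The H3K4me3 peak covered 504 bp upstream to 697 bp downstream with a fold enrichment of 10.95 (rank 84.2%). H3K27ac covered nearly the same stretch, 517 bp upstream to 586 bp downstream, at a fold enrichment of 7.26 (rank 63.7%). All 3 peaks therefore lay on top of each other across the start, and the marks also covered a second curated start 497 bp further on, which the MOF peak did not reach. A further H3K27ac peak of 236 bp with a fold enrichment of 5.31 lay in an intron 12928 bp from the start, close to the end of the gene. Prss8, on the opposite strand, overlaps the end of the Kat8 span, so this peak is given by its position and not assigned to Kat8 alone.

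Kansl1 (gene ID 76719, chr11:104333501-104469443, minus strand) encodes the scaffold on which the NSL complex is built, and it carried MOF at an upstream and at an internal promoter. Curated starts lie at its most upstream end, 582 bp further, and 27123 and 27152 bp further into the gene. The upstream and the internal promoter are printed because the peaks at them differed.
Kansl1, upstream start, chr11:104469434-104469693, minus strand: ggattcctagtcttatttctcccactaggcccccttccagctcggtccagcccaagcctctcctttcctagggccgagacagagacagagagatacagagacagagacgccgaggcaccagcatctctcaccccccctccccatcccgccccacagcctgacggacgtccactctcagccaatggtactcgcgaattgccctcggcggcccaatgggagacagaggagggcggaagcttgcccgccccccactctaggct
Kansl1, internal start, chr11:104442311-104442570, minus strand: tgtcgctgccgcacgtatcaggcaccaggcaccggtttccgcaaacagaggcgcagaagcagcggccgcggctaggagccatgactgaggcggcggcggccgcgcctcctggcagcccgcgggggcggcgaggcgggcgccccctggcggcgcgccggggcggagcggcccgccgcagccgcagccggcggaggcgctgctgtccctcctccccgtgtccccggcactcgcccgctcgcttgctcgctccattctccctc
None of the searched motifs was found in either. The windows, taken over 300 bases, differed in composition: G and C made up 63.7% upstream and 75% at the internal start, and the observed over expected ratio of CpG was 0.5 against 0.95. At the upstream promoter a MOF peak of 1282 bp had a score of 799 (rank 67.8%), H3K4me3 a fold enrichment of 10.3 over 1706 bp (rank 78.4%) and H3K27ac one of 8.65 over 1106 bp (rank 81.3%).
The internal promoter held the highest MOF score of the set, 2289 over 1777 bp (chr11:104441406-104443182), at rank 99.3% of MOF promoter peaks and 98.0% of the whole list. The marks were lower here than upstream. H3K4me3 had a promoter peak of 694 bp (fold enrichment 5.28, rank 18.4%) and a peak of 1458 bp in the body past the promoter window (5.39, rank 19.4%). The internal starts lay uncovered between them. H3K27ac had a fold enrichment of 5.81 across 1536 bp that included the starts (rank 39.8%). Within Kansl1, then, the order of the MOF peaks was the reverse of that of H3K4me3 and of H3K27ac. A further MOF peak of 897 bp with a score of 919 lay in an intron 125782 bp from the upstream start and overlapped no peak of the other lists. The paper holds that MOF peaks without H4K16ac or other marks probably arose from technical problems of its assays. H4K16ac was not examined here.

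Kansl3 (gene ID 226976, chr1:36335730-36369181, minus strand), a further core NSL subunit, had high peaks, of which those of MOF and H3K27ac were narrow. MOF covered 466 bp, from 385 bp upstream to 80 bp downstream of the start, with a score of 827 (rank 71.8%). H3K4me3 reached a fold enrichment of 11.1 (rank 85.1%), the highest of the 10 genes, and H3K27ac one of 9.25 (rank 86.6%), again the highest. The MOF peak sat on the upstream side, while H3K4me3 extended to 1391 bp downstream and H3K27ac began 23 bp downstream of the start and ended at 676 bp. The H3K27ac peak thus did not cover the start and met the promoter window by its upstream edge alone.

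Phf20 (gene ID 228829, chr2:156196647-156309953, plus strand) encodes a subunit that reads methylated lysines. Its MOF peak lay almost wholly upstream, from 1123 bp before to 35 bp after the start, with a score of 662 (rank 51.9%). H3K4me3 had a fold enrichment of 9.51 (rank 70.5%) and H3K27ac one of 7.37 (rank 65.3%), both across the start. A pair of SP/KLF motifs lay 25 and 13 bp upstream of that start. Phf20 also held most of the peaks inside gene bodies: 7 of the 9 H3K27ac peaks of the set that touched no promoter lay in its introns, at 6028 to 91847 bp from the start, with fold enrichments between 4.23 and 6.92. The one nearest the start overlapped an H3K4me3 peak of 546 bp with a fold enrichment of 9.25, and one at 81955 bp (fold enrichment 5.76) lay inside a MOF peak of 1630 bp with a score of 736. That MOF peak, unlike those at promoters, overlapped H3K27ac without H3K4me3.

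Mcrs1 (gene ID 51812, chr15:99242817-99251961, minus strand) encodes microspherule protein, an NSL subunit with a role in spindle assembly as well. Its MOF peak was the widest of the set and had the lowest score, 494 over 2409 bp, from 1073 bp upstream to 1335 bp downstream (rank 24.5% by score and 97.4% by width). H3K4me3 covered 1999 bp at a fold enrichment of 7.34 (rank 43.1%) and H3K27ac 1078 bp at 7.01 (rank 59.4%). A TSS of 1700120C14Rik lies 173 bp downstream of the Mcrs1 start on the opposite strand, so these peaks cannot be given to one of the genes alone.

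Kansl2 and Wdr5 are the NSL genes without MOF at the promoter. Kansl2 (gene ID 69612, chr15:98517658-98534269, minus strand) encodes a core subunit and is host to small nucleolar RNAs, and Wdr5 (gene ID 140858, chr2:27515147-27536535, plus strand) encodes a propeller protein that is also a part of the H3K4 methyltransferase complexes. Their promoters are printed for comparison with those that carried MOF.
Kansl2, chr15:98534260-98534519, minus strand: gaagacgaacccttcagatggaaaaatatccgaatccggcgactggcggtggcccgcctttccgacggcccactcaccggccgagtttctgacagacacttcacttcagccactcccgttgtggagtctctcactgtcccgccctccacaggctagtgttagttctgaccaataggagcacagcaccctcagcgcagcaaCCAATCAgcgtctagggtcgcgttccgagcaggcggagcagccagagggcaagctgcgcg
Wdr5, chr2:27514897-27515156, plus strand: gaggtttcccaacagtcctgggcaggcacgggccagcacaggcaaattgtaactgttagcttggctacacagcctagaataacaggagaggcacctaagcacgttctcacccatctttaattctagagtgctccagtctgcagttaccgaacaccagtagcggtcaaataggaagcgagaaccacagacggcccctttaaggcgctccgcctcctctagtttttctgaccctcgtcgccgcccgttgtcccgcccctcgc
The Kansl2 promoter held a CCAAT box 50 bp upstream of the start, in capitals, and a YY1 motif 31 bp downstream, past the printed letters. Wdr5 held none of the motifs. Kansl2 had H3K4me3 from 437 bp upstream to 1449 bp downstream with a fold enrichment of 6.99 (rank 38.3%) and H3K27ac with 9.12 (rank 85.6%), the second highest H3K27ac of the set. Wdr5 had H3K4me3 over 1998 bp with a fold enrichment of 7.89 (rank 50.3%) and H3K27ac over 1701 bp with 7.56 (rank 68.3%). The heights of both marks at these genes were thus within the range of the NSL genes that carried MOF. By width the H3K27ac peak of Wdr5 was outside it, since the widest H3K27ac promoter peak of those genes had 1536 bp (Kansl1). The nearest MOF peak to the Kansl2 start lay 29419 bp downstream with a score of 786, and the one nearest the Wdr5 start lay 25021 bp downstream with a score of 1036, at the promoter of Gm13421. A peak below the caller's threshold is absent from a list, so no MOF peak does not mean no MOF.

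Hcfc1 (gene ID 15161, chrX:73942792-73966357, minus strand) encodes host cell factor, a co-regulator of cell cycle genes that is shared by several chromatin complexes, and it is the X-linked member. A YY1 motif lay 168 bp upstream of the start, in capitals, and another 24 bp downstream, past the printed letters.
Hcfc1, chrX:73966348-73966607, minus strand: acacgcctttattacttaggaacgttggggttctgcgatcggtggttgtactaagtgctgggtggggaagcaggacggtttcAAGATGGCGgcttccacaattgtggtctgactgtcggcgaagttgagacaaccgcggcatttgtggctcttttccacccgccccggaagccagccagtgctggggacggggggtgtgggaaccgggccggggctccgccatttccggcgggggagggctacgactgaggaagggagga
Its MOF peak was broad and low, 1829 bp from 1343 bp upstream to 485 bp downstream with a score of 548 (rank 32.7%), and held 2 inner blocks. H3K4me3 covered 2507 bp at a fold enrichment of 4.46 (rank 10.6% by height and 97.3% by width) and H3K27ac 821 bp at 4.48 (rank 18.2%). A smaller H3K4me3 peak of 593 bp with a fold enrichment of 3.21 followed in the gene body. Wide H3K4me3 promoter peaks were lower in general: those of 2000 bp or more had a median fold enrichment of 5.65 (n = 1373) and those of 1000 to 1999 bp one of 8.75 (n = 7408). Among the former Hcfc1 stood at rank 17.3%. On the X chromosome H3K4me3 promoter peaks had a median of 8.53 over 444 peaks, against 7.84 on the autosomes. The part of width or chromosome in the height at Hcfc1 was not tested. MOF was listed at few X-linked promoters: of 462 X-linked genes with H3K4me3, 13.4% also had MOF, against 43.0% of 13666 autosomal genes with H3K4me3. Hcfc1 is among these X-linked genes with MOF, and the reason for the gap was not tested. MOF promoter peaks had a median score of 571 on the X chromosome (n = 56) and 651 on the autosomes.

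The MSL genes had the lowest H3K4me3 heights of the set and, with Hcfc1, the lowest H3K27ac heights. Msl1 (gene ID 74026, chr11:98795516-98807859, plus strand) encodes the scaffold of the MSL complex and Msl2 (gene ID 77853, chr9:101074054-101104800, plus strand) its ubiquitin ligase subunit. Their promoters are printed because MOF was listed at Msl2 and not at Msl1. Capitals mark a pair of SP/KLF motifs 81 and 68 bp upstream of the Msl1 start and an NRF1 motif that begins 4 bp upstream of the Msl2 start and spans it.
Msl1, chr11:98795266-98795525, plus strand: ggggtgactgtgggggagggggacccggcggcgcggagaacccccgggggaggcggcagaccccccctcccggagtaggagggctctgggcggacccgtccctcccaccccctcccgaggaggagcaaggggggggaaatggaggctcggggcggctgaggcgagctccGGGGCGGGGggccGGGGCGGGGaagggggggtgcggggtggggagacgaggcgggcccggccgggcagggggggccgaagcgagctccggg
Msl2, chr9:101073804-101074063, plus strand: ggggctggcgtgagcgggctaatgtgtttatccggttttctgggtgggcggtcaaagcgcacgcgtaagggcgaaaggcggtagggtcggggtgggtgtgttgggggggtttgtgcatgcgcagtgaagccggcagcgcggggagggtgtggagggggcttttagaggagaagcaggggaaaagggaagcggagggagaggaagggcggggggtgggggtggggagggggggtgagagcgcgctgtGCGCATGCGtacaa
At Msl1, H3K4me3 formed a peak of 1045 bp that ended 191 bp upstream of the start (fold enrichment 4.03) and one of 2045 bp that began 88 bp downstream (fold enrichment 4.19), at ranks 7.53% and 8.67%. H3K27ac had a peak with a fold enrichment of 4.79 that ended 372 bp upstream and one of 3.69 that crossed the start (ranks 22.9% and 7.44%). At Msl2, H3K4me3 formed a peak of 360 bp that ended 419 bp upstream with a fold enrichment of 1.89, near the bottom of the list (rank 0.158%), and one of 2665 bp that began 794 bp downstream with a fold enrichment of 3.72 (rank 5.67%). Distances at Msl2 are from its first start. A later curated start lies 708 bp further on, and the larger H3K4me3 peak counts as a promoter peak through that start. H3K27ac peaks at 4.67 and 4.56 (ranks 21.2% and 19.3%) lay on either side of the Msl2 start. Msl1 and Msl2 were the 2 members without an H3K4me3 peak over any curated start, a feature of 9.75% of all genes with H3K4me3 that was singled out after the values were seen. Among peaks of 2000 bp or more, the larger H3K4me3 peaks of Msl1 and Msl2 ranked at 12.3% and 6.05%, and the part of width in their heights was not tested.
At Msl2 a MOF peak of 336 bp with a score of 659 (rank 51.4%) lay 544 to 209 bp upstream and overlapped the small H3K4me3 peak and the upstream H3K27ac peak. It was the one MOF promoter peak of the set that covered no start. A narrow MOF peak of 281 bp with a higher score, 1220, lay in an intron 23542 bp from the start, overlapped no other list, and had 48.8% of its bases masked as repeats in the reference. The paper's caution on MOF peaks without other marks, given above for Kansl1, holds for this peak too. At Msl1 the nearest MOF peak lay 6305 bp upstream with a score of 963, and a later curated start, 3138 bp downstream of the other, had no peak of any list.

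Outside the promoter windows, peaks of the set were few. MOF had 3 peaks in gene bodies that touched no promoter (in Kansl1, Phf20 and Msl2), H3K4me3 had 3 and H3K27ac 9. Counted by any overlap of 1 bp with the body past the promoter window, MOF was in the bodies of 5 of the 10 genes, H3K4me3 in 10 and H3K27ac in 10, because promoter peaks reach past 100 bp downstream. With 2500 bp on either side of each start left out, the counts were 3, 2 and 2 of 10, against 19.3%, 17.2% and 20.2% of all genes with such a stretch. By the 1 bp rule the shares of all 25074 genes with a body past the promoter window were 34.8%, 59.6% and 49.7%. The members were longer, with a median length of 22477 bp against 13453 bp, and the part of length in these counts was not tested.

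**Figure D3:**
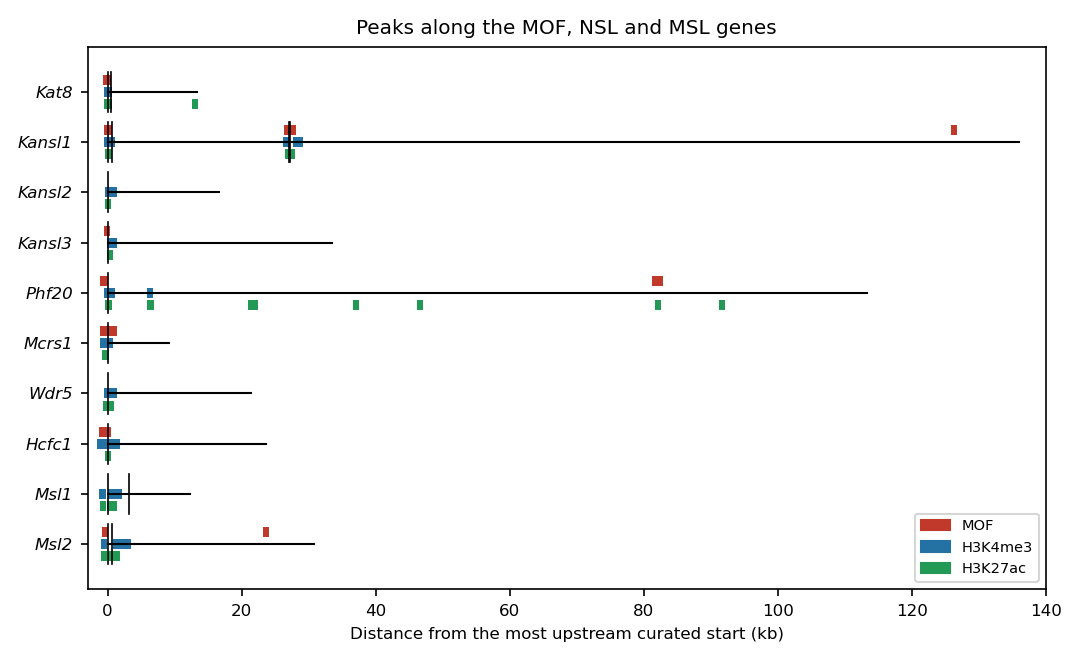
Peaks of the 3 lists as coloured bars along each gene, drawn as a line from its most upstream curated start to its end, with the distance in kb on the horizontal axis and curated starts as vertical ticks. Bars narrower than 0.9 kb are drawn at that width. MOF bars away from any promoter appear in Kansl1, Phf20 and Msl2, and 7 H3K27ac bars lie inside Phf20.

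Across the set, the promoter letters were as rich in CpG as those of other marked promoters. All 10 genes matched the RefSeq table, with 15 promoters in all. The Kansl1 start 582 bp after its first was not among them, so its letters were not searched. In this paragraph a promoter had H3K4me3 if a peak overlapped its window of 300 bases, and the 15 promoters of the set were taken with or without the mark. Over these windows the median share of G and C was 63.7% in the set, 62.0% at promoters with H3K4me3 (n = 13532) and 52.7% at all promoters (n = 32817). The median CpG ratio was 0.88, 0.78 and 0.38. Motifs were searched on both strands as fixed letters, apart from the X-box. That was searched as GTNRCC, a short gap and RGYAAC, in which N, R and Y stand for variable bases. SP/KLF (GGGGCGGGG) was found at Phf20, Mcrs1, Msl1 and the second start of Msl2, and at 22.8% of promoters with H3K4me3. YY1 (AAGATGGCG), found at Kansl2 and Hcfc1, was present at 2.96% of promoters with H3K4me3 and 1.4% of all. The ETS motif (CCGGAAGTG), at Kat8, was present at 4.43% of promoters with H3K4me3, NRF1 (GCGCATGCG), at Msl2, at 3.72%, and the CCAAT box (CCAATCA), at Kansl2, at 10.6%. No match in the set was found for ZNF143/THAP11 (ACTACAATT), CRE (TGACGTCA), the E-box (CACGTG) or the X-box, which were present at 0.717%, 3.25%, 10.3% and 1.74% of promoters with H3K4me3. SP/KLF was found at promoters with MOF (Phf20, Mcrs1, Msl2) and without it (Msl1), and YY1 likewise (Hcfc1, Kansl2). At Msl2 the SP/KLF match belongs to the second start and lay outside the MOF peak. A match is a run of letters and not a measured site.

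Related gene groups were set beside these genes, with MOF at 4 of 9 to 11 of 15 promoters. The 7 of 10 of the set lay within that range. MOF was at 42.0% of all genes with H3K4me3 and at 48.8% of those with both marks. Of 6 further NSL and MSL subunits and paralogs, all had H3K4me3 and H3K27ac and 4 had MOF: Kansl1l (score 1281), Hcfc2 (1272), Wdr5b (1219) and Ogt (494), the glycosyltransferase that cleaves host cell factor. Msl3, the chromodomain subunit of the MSL complex, and Phf20l1 had no MOF peak. Of 15 genes of the H3K4 methyltransferase complexes, in which WDR5 also sits, 11 had MOF, led by Wdr82 (score 1106), Kdm6a (948) and Rbbp5 (919). Setd1b, Cxxc1, Ncoa6 and Paxip1 did not, and H3K4me3 was at 14 of the 15, without Ncoa6, and H3K27ac at 13.
H3K4me3 and H3K27ac were at all 9 other histone acetyltransferase genes and all 9 genes for H4K16 deacetylases and readers of acetylated histones. Of the other acetyltransferase genes, 6 had MOF, with the highest scores at Kat7 (869), Kat5 (763) and Ep300 (760), and Kat2a, Kat6b and Crebbp had none. Of the deacetylase and reader genes, 4 had MOF, with scores of 1076 at Brd2, 505 at Hdac1 and 481 at Bptf among them. Sirt1 and Sirt2, which remove H4K16ac, Hdac2, Hdac3 and Brd3 had none. No gene of these lists had Rfx2 at the promoter. The internal Kansl1 promoter, at 2289, had a higher MOF score than any promoter of these lists.

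**Figure D4:**
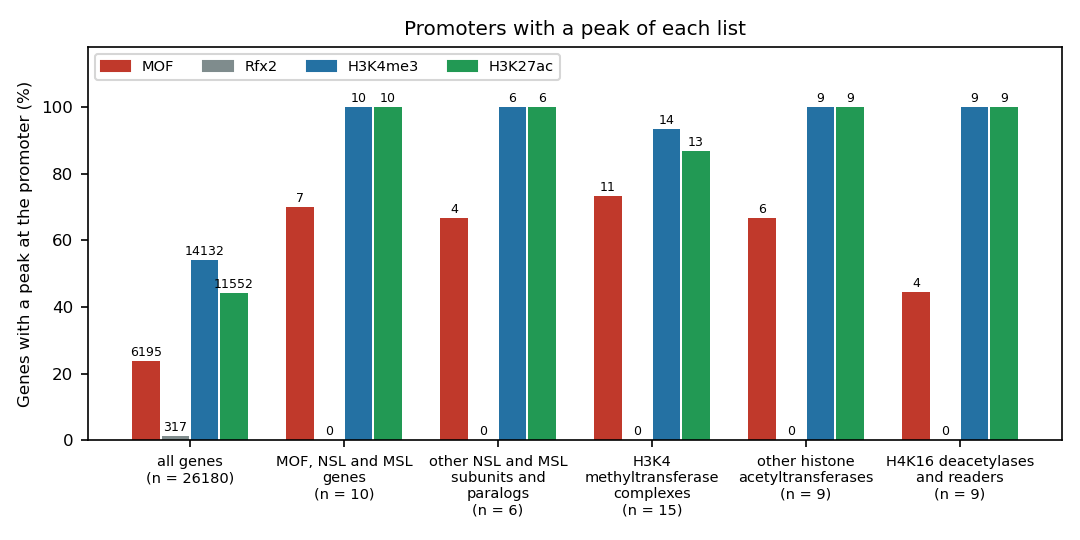
Percent of genes with a peak of each list at the promoter, for all 26180 genes, the 10 MOF, NSL and MSL genes and 4 related lists, with the number of genes above each bar. MOF is at 7 of the 10 genes and at 4 to 11 genes of the other lists, Rfx2 is at 0 in all 5 lists, and the bars have no error because each list came from 1 library.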

How the data were processed

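MOF was measured by ChIPseq and Rfx2, H3K4me3 and H3K27ac by Cut&Run. Per the labels and the study's methods, the authors aligned reads to mm10 with Bowtie2 and called peaks in each library with MACS2. Control libraries and excluded regions were not given in the sources used here. The deposited MOF list gives regions with a score and inner blocks, its scale is not stated, and it is longer than the set of MOF peaks the authors describe. For Rfx2, H3K4me3 and H3K27ac the deposited columns are fold enrichment (a ratio), −log10 p-value, −log10 q-value, a score and the summit. The deposited score of these 3 lists was not used. The name of the H3K4me3 list does not carry the mark of the repeat library, so its library is not certain. Libraries of H4K16ac and H3K4me1 and the other libraries of H3K4me3 and H3K27ac were not used here. The lists hold no read counts, so no interval was given and depth was not adjusted for. The paper's summary of its libraries gives fewer mapped reads for Rfx2 than for MOF, H3K4me3 and H3K27ac.

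Starts, spans and promoter sequences came from curated RefSeq transcripts of GRCm38.p6, the assembly behind mm10. 0 peaks ended beyond a chromosome. Overlaps were computed with pandas (2.3.3) in python (3.11.15), and on simulated intervals 0 of 1334 overlaps differed from bedtools (2.31.1) and 0 of 376 summit or centre hits differed from a check of every pair. MOF peaks without a summit were placed by their centre where a point was needed. Ranks are percentiles among promoter peaks of the same list. All 10 members are named, as are the genes of 4 related lists with the 3 or 4 highest MOF scores and those without MOF, and the nearest MOF peak of a member without one. An item of these lists is counted and not reported here by itself. The members, the lists and the motifs were chosen with earlier results of these data known.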

Additional observations from a re-analysis of the deposited data

How the results depend on the processing

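No paired analysis was possible because the 4 antibodies analysed had 1 peak list each. Of 39 alternative settings, 32 left the count within 1.5 times or the rank within the spread of the set. Shares in parentheses are those of all genes with such a window under the same setting. The members with MOF at the promoter numbered 5 to 7: peaks in the upper 50% of scores left out Mcrs1 and Hcfc1 (5 genes, 14.6%), counting by the peak's centre left out Mcrs1 (6 genes, 14.7%), and the other settings gave 7 (20.6% to 27.8%). Rfx2 stayed at 0 in its settings. Requiring the summit in the promoter window left H3K4me3 at 6 of 10 genes (29.6%), and requiring it in the body left H3K27ac at 6 (34.2%). MOF in the body fell from 5 to 3 with the upper 50% of peaks (21.2%). Leaving out 2500 bp on either side of each start gave 3 for MOF (19.3%), 2 for H3K4me3 (Phf20 and Msl2, 17.2%) and 2 for H3K27ac (Kat8 and Phf20, 20.2%), so the members' body counts for both marks were then near the background. Ranked by width, the median H3K4me3 rank was 88.1% and not 46.7%. The use of the most upstream start alone and of the MOF inner blocks alone was chosen after seeing the data.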
